A study of Drosophila melanogaster with 12 samples.

Results

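On the X chromosome of Kc167 cells, 558 regions carried a peak of the zinc-finger protein CLAMP in both untreated libraries and overlapped no region of the insulator protein CP190. A region is the union of overlapping peaks from the 2 mock libraries of an antibody, and it counts as reproducible when both libraries have a peak in it. The 558 regions are those of 953 reproducible CLAMP regions on X that shared not a single base with any of the 7359 reproducible CP190 regions. The whole set of chromosome arms held 3655 reproducible CLAMP regions. The other 395 CLAMP regions on X overlapped CP190, and 1552 autosomal CLAMP regions met the same rule as the 558. The regions, called members here, were chosen by the CLAMP and CP190 peak calls of mock cells, so their values in mock cells are given as a description, without a test.

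CLAMP binds GA-rich DNA on all chromosomes. In male flies it helps to bring the dosage compensation complex to the X chromosome, where that complex raises transcription. Females do not form the complex, although CLAMP also binds their X. CP190 is a cofactor shared by several Drosophila insulator proteins and is known mostly from gene ends and domain borders.

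Kc167 is a Drosophila melanogaster line that was derived from embryos and is labelled female. Cells were nucleofected either with no RNA (mock) or with double-stranded RNA that targets CP190 (12 µg, termed dsCP190) and grown for 6 days. Chromatin was precipitated with 5 µg of antibody to CP190 or to CLAMP, with 2 libraries for each of the 4 combinations, which gave 8 peak lists. The design text of the series names a CLAMP knockdown, whereas its title and every sample label name CP190, and the labels were followed. The line is a single cultured line, and nothing in the labels says that the replicates were separate cultures.

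The CLAMP mock libraries had 4471 and 4514 peaks and the CLAMP dsCP190 libraries 2468 and 901. For CP190 there were 7669 and 7964 mock peaks against 2047 and 3138 with dsCP190. Amounts of CP190 RNA or protein were not analysed here. At the 321 of the 558 regions that CLAMP dsCP190 replicate 1 called, its local background had a median ratio of 0.369 to the first mock library and 0.439 to the second. At the 123 regions that dsCP190 replicate 2 called, these ratios were 0.349 and 0.406. Local background was thus lower in both dsCP190 CLAMP libraries, at similar ratios although their peak numbers differed. Its part in any CLAMP call lost after dsCP190 was not tested. The X chromosome held 25.8% ± 0.175 (SD, n = 2) of CLAMP peaks in mock cells and 28.1% ± 1.75 in dsCP190 cells. This difference of 2.22 percentage points had p = 0.333 in a two-sided exact permutation test, the smallest p that 2 libraries against 2 allow. The X share of CP190 peaks was 18.8% ± 0.205 in mock cells and 19.9% ± 0.453 in dsCP190 cells. That difference of 1.10 points also had p = 0.333 in the same permutation test. For comparison, 15.8% of the 13911 protein-coding genes lie on X.

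In mock cells the regions without CP190 had a median fold enrichment of 4.28 in replicate 1 and 4.52 in replicate 2. Fold enrichment is the authors' value for a peak, its fragments at the summit over the local background with 1 added to each, as the values show. It ran from 1.43 to 32.2 in replicate 1 and from 1.71 to 29.1 in replicate 2. The median summit held 84 and 76 fragments, as recovered from the deposited values. The median region was 658 bp long, with a range of 317 to 3737 bp. Of the 558, 76 (13.6%) fell in the weakest quintile of all CLAMP regions, 147 (26.3%) in the middle one and 95 (17.0%) in the strongest, where each quintile holds 20.0% of all CLAMP regions.

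Several of the strongest regions lay at genes for developmental regulators. Values are fold enrichments of CLAMP, and coordinates are 1-based on dm6. The first in the order of mock strength lay inside mamo, which encodes a zinc-finger protein needed in the female germline, at chrX:13888735-13890955. It had 21.5 and 29.1 in mock cells, and 25.2 and 10.4 with dsCP190, so dsCP190 replicate 1 lay between the mock values and replicate 2 below both.

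Lim1, a LIM homeodomain transcription factor, held the second and the third. The region at its end (chrX:8804969-8807723) had 32.2 and 22.4 in mock cells, and 36.4 and 20.7 with dsCP190. The one inside the gene (chrX:8757571-8758401) had 27.8 and 22.4 in mock cells, and 42.6 and 20.7 with dsCP190. At both, the mock values lay between the dsCP190 values.

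Next came a region 3739 bp from cut (ct), a homeodomain gene, with 22.1 and 22.3 in mock cells, and 17.0 and 10.9 with dsCP190. The tandem pair of polyhomeotic genes, which encode a subunit of Polycomb repressive complex PRC1, held further strong regions. A region inside ph-p (chrX:2136224-2138999) had 21.0 and 22.8 in mock cells, and 22.8 and 10.6 with dsCP190. A region at an end of ph-d (chrX:2122333-2124928) had 17.4 and 23.0 in mock cells, and 23.9 and 10.2 with dsCP190. The polyhomeotic copies are nearly identical in sequence, so the share of reads that belongs to each is uncertain.

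Broad (br), a zinc-finger factor of the ecdysone response, had 21.8 and 21.0 in mock cells, and 24.5 and 16.1 with dsCP190 at a region that also lies inside Mur2B. A region inside kirre, an immunoglobulin-domain adhesion protein of myoblast fusion, had 21.6 and 21.1 in mock cells, and 15.9 and 8.72 with dsCP190. As deposited, both dsCP190 values lay below both mock values at kirre and the groups overlapped at br. With each library centred on its median over the regions called in all 4 lists, the groups overlapped at kirre, and both dsCP190 values lay above both mock values at br.

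Photoreceptor genes were also among the first 20. A region in norpA, the phospholipase C of phototransduction, had 19.3 and 21.3 in mock cells, and 20.7 and 10.5 with dsCP190. A region in rdgA, a diacylglycerol kinase, had 21.0 and 18.8 in mock cells, and 22.4 and 15.3 with dsCP190. As deposited, values at both overlapped between the groups. With each library centred as above, both dsCP190 values lay above both mock values at each, as at 33.6% of the 801 CLAMP regions called in all 4 CLAMP lists.

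Notch (N), the receptor of the Notch pathway, held a region with 18.3 and 18.8 in mock cells, and 16.5 and 5.61 with dsCP190. The voltage-gated sodium channel gene para held one with 17.7 and 18.1 in mock cells, and 14.5 and 7.26 with dsCP190. DIP-alpha, a cell-surface immunoglobulin protein of neurons, held one with 17.7 and 22.0 in mock cells, and 8.66 and 9.59 with dsCP190. All 3 had both dsCP190 values below both mock values, as had 46.4% of the 801 CLAMP regions called in all 4 CLAMP lists. With each library centred on its median over those regions, the values of these 3 members overlapped.

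**Figure D1:**
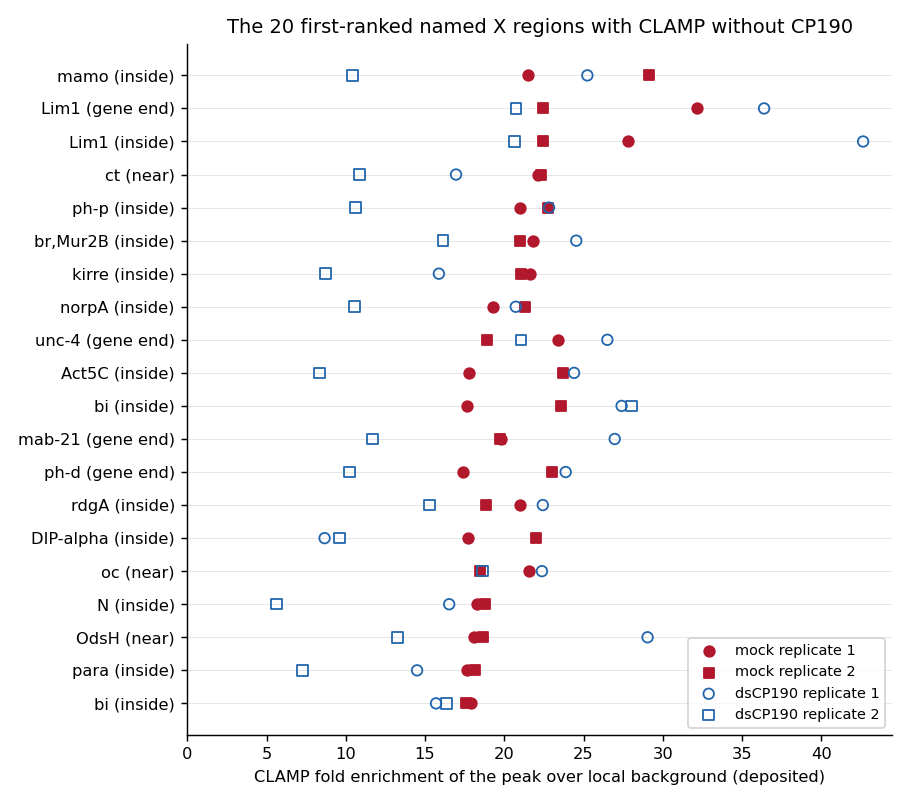
CLAMP fold enrichment (x axis, as deposited) of the first 20 X regions named by the ordering rule, 1 row per region with the gene it lies in, at or near, and 1 point for each of the 4 CLAMP libraries. All 20 were called in every CLAMP library, and dsCP190 replicate 2 (open squares) is lowest in most rows, while bi has 1 region where both dsCP190 values are above both mock values.

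Most regions with CLAMP and no CP190 lay inside genes. Of the 558, 404 (72.4%, 95% Wilson interval 68.5 to 75.9) had their summit inside a protein-coding gene and over 500 bp from its ends, where all CLAMP regions had 52.8%. At 82 (14.7%, 12.0 to 17.9) the summit lay within 500 bp of an end of a protein-coding gene, against 34.3% of all CLAMP regions. Of positions taken every 100 bp along X, 14.3% lay this close to a gene end, near the share of the members. The other 72 (12.9%, 10.4 to 15.9) lay between genes, against 12.8%. The gene table gives no strand and no exons, so starts and stops of genes, and exons and introns, were not separated.

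CLAMP regions on X that overlap CP190 were distributed differently, with 58.2% at gene ends, 37.7% inside genes and 4.05% between them. Autosomal CLAMP regions that overlap CP190 had similar shares, 57.8%, 35.5% and 6.70%. On X, the share at gene ends was lower in the regions without CP190 than in those with it. The difference was -43.5 percentage points, with a 95% Newcombe interval of -49.0 to -37.7. The share inside genes was 34.7 points higher (28.5 to 40.5), and that between genes 8.85 points higher (5.35 to 12.3). Regions without CP190 inside genes had their summit a median of 4987 bp from the nearest gene end, against 1030 bp for X regions with CP190 that lay inside genes. At autosomal CLAMP regions without CP190 inside genes this median was 6072.5 bp, further than at the members.

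The contrast with autosomal regions of CLAMP without CP190 was smaller. These had 17.9% at gene ends, 62.5% inside genes and 19.6% between them. The X regions were inside genes more often by 9.90 points (5.38 to 14.2) and between genes less often, by -6.68 points (-9.94 to -3.10). The difference at gene ends, -3.22 points, had an interval of -6.57 to 0.450 and did not exclude 0. Positions taken every 100 bp along X fell inside genes at 61.6% and between genes at 24.1%, and autosomal positions at 56.2% and 28.4%, so the chromosomes themselves differ in the same direction. All these intervals cover counting error over regions only.

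**Figure D2:**
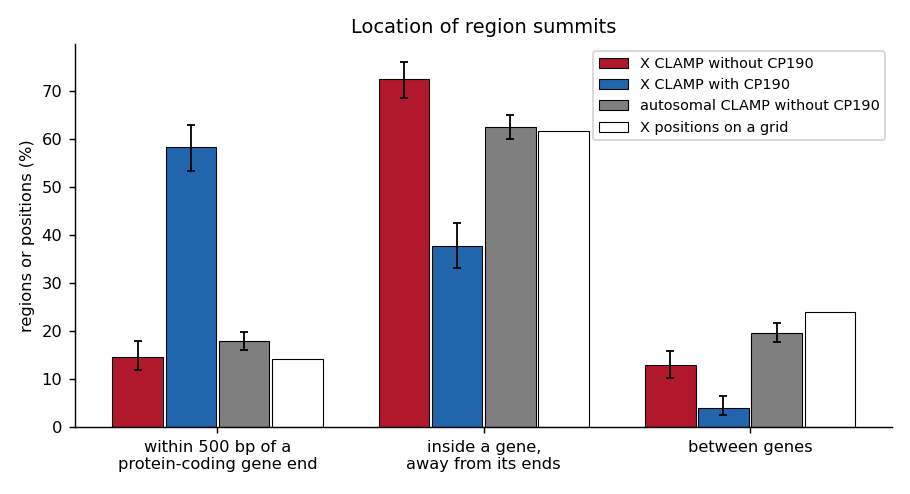
Share of regions (y axis, percent, bars from 0) with their mean mock summit within 500 bp of a protein-coding gene end, inside a gene away from its ends, or between genes, for X regions with CLAMP without CP190, X regions with both, autosomal regions with CLAMP without CP190, and positions every 100 bp on X. Error bars are 95% Wilson intervals, and the regions without CP190 stand at 72.4% inside genes against 37.7% for X regions with CP190.

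By the rule, all 558 members lay apart from reproducible CP190 regions. The median distance to the nearest reproducible CP190 region was 5316 bp, with a range of 25 to 67937 bp. Of the 558, 67 (12.0%) had CP190 within 1000 bp and 397 (71.1%) within 10000 bp. Autosomal CLAMP regions without CP190 had a median distance of 6732 bp, with 11.9% within 1000 bp and 63.1% within 10000 bp. The most distant lay inside kirre (chrX:3025706-3026268), with 9.51 and 8.36 in mock cells, 5.32 in dsCP190 replicate 1 and no call in replicate 2.

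At the edge of the rule, the closest member lay 25 bp from a CP190 region, near CG7406. The next lay 46 bp from CP190 inside dnc, the cAMP phosphodiesterase gene, with CLAMP at 4.51 and 5.10 in mock cells and CP190 next to it at 5.99 and 9.08. Further members lay 59 bp from CP190 at Inx2, a gap junction protein gene, and 83 bp from it in Hsc70-3. Just outside the rule, CLAMP regions overlapped CP190 by 7 bp at Fim, by 23 bp at spri and by 38 bp at baz. On the side of CLAMP, 177 X peaks of mock replicate 1 and 178 of replicate 2 had no partner in the other mock list. Of these, 97 and 93 overlapped no CP190 region, with median fold enrichments of 2.54 and 2.77.

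The regions lay along the whole of X, from 275822 to 22862416, but unevenly. Counts per 1 Mb reached 45 between 3 and 4 Mb, a bin that holds parts of N, dnc, kirre, Myc and Mnt. They reached 40 between 12 and 13 Mb and 38 between 7 and 8 Mb. The bin from 22 to 23 Mb held 2, and the last bin held 0. Across the 24 bins the number of members had a Pearson r of 0.604 with the number of CLAMP regions with CP190, 0.581 with that of CP190 regions and 0.399 with that of gene starts. No test is given, and neighbouring bins are not independent.

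Many members had another close by, as had autosomal CLAMP regions without CP190. The gap between neighbours had a median of 16278 bp at members and 16976 bp at those autosomal regions. The lower quartiles were 2513 and 2671 bp. Joining members less than 10 kb apart gave 323 groups, of which 217 held a single region and 106 held 341 regions together. The largest group, 15 regions within 42.9 kb, lay over part of Smr and its neighbours (chrX:12718441-12761333). Smr encodes a corepressor of nuclear receptors. The strongest region of the group had 17.6 and 17.9 in mock cells, and 28.4 and 11.9 with dsCP190, and the weakest had 2.53 and 2.49 in mock cells and 2.91 in dsCP190 replicate 1 only. Of the 15 regions, 12 were called in dsCP190 replicate 1 and 5 in replicate 2.

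Raf, a kinase gene of the receptor tyrosine kinase pathways, lay in a group of 10 regions within 31.2 kb. Tomosyn and Tis11, which encode a regulator of vesicle fusion and a zinc-finger protein of mRNA decay, shared another group of 10 regions. Mnt, which encodes a partner of Max that opposes Myc, lay in a group of 9. Myc itself lay in a group of 5, of which 2 were called in dsCP190 replicate 1 and 1 in replicate 2.

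Of 2192 protein-coding genes on X, 271 (12.4%) had a member at an end or inside. Their median length was 15.4 kb, against 2.52 kb for all X genes and 5.68 kb for the 413 genes with a CLAMP region that overlaps CP190. Both kinds of region occurred at 100 genes. The genes with the most members were Smr with 11, mamo with 10, and Hr4, Raf and Mnt with 9 each. Hr4 encodes a nuclear receptor of the ecdysone response.

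The share of genes with a member rose with gene length. In 5 groups by length it was 0.683% of the shortest X genes, 5.24% of the middle group and 41.8% of the longest, which spans 8.25 to 394 kb. For CLAMP regions with CP190 the shares were 2.73%, 16.9% and 36.3%. Longer genes offer more positions, and the part of length in either pattern was not tested.

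**Figure D3:**
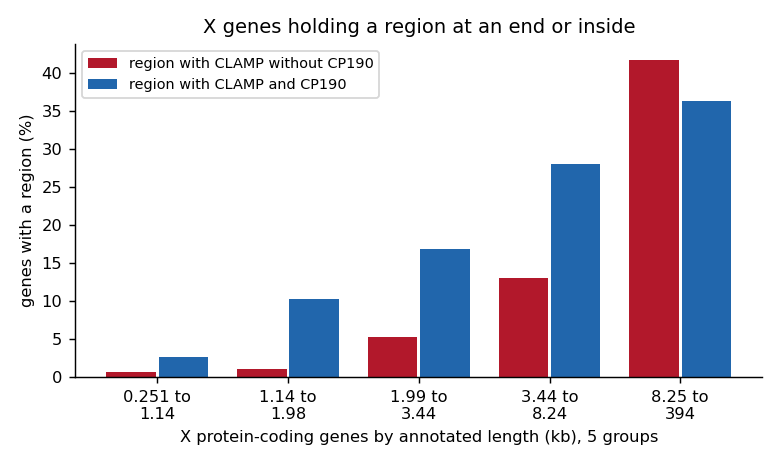
Share of X protein-coding genes (y axis, percent, bars from 0) with a region at an end or inside, in 5 groups of equal size by annotated length (x axis, kb), for regions with CLAMP without CP190 and regions with both. Genes with CLAMP without CP190 rise from 0.683% in the shortest group to 41.8% in the longest, and exceed those with both proteins in the longest group only.

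Gene groups by function are given beside the 12.4% of all X genes that held a member, without a test between groups. The groups are chosen lists and need not hold every X gene of a function, so their shares depend on that choice. Of 11 listed homeobox genes on X, 7 held a member (Vsx1, ct, oc, Lim1, B-H1, unc-4 and OdsH). Their 14 members had median fold enrichments of 13.1 and 13.7 in mock cells, against 4.28 and 4.52 over all members. Among 26 other developmental transcription factors 18 held one, with 50 members and medians of 5.69 and 5.33. The homeobox genes have a median length of 18.6 kb and the other factors of 11.4 kb, both above the median of X genes. Of all X genes of 8.25 to 394 kb, 41.8% held a member. The part of gene length in the counts of these groups was not tested.

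Of 26 signalling genes, 13 held 38 members, with medians of 4.60 and 5.93. These include sgg, the GSK3 kinase gene, where a region (chrX:2652267-2653173) had 12.6 and 13.7 in mock cells, and 7.26 and 4.60 with dsCP190. Of 25 ion channel and neuronal genes, 15 held 29 members, with medians of 4.25 and 3.96. The signalling genes have a median length of 10.15 kb and the ion channel and neuronal genes of 40.1 kb. A region in Ca-alpha1T, a T-type calcium channel gene, had 6.55 and 7.45 in mock cells, 3.50 in dsCP190 replicate 1 and no call in replicate 2.

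Of 11 cytoskeleton and muscle genes, with a median length of 9.1 kb, 4 held 8 members. The main region of Act5C, a cytoplasmic actin gene, had 17.7 and 23.7 in mock cells, and 24.4 and 8.33 with dsCP190. Moe, the moesin gene, held 3 members with fold enrichments up to 8.64 and 9.55 in mock cells, and wupA, the troponin I gene, held 1 with 5.04 and 5.95. Of 8 listed yolk protein and metabolism genes, with a median length of 2.72 kb, only Gs2, a glutamine synthetase gene, held members, 3 in all. Outside this list, Hex-A held 2 members and Ahcy held 1.

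The lists of ribosomal protein and of cell cycle genes held no member. None of 14 ribosomal protein genes on X held a member, while 12 of them held a CLAMP region with CP190. None of the 7 listed cell cycle and DNA repair genes held one, and 3 of these had a CLAMP region with CP190. These 7 have a median length of 4.39 kb. Outside this list, Cdc7, Nek2 and DNAlig4 held 1 member each, so its count does not stand for all such genes on X. The ribosomal protein genes have a median length of 1.60 kb, and of all X genes of 1.14 to 1.98 kb 1.14% held a member.

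Of 4 genes of dosage compensation and sex determination on X, roX1 and Sxl held a member. The region in roX1, a noncoding RNA of the dosage compensation complex (chrX:3861057-3861600), had 8.18 and 7.97 in mock cells, was called in dsCP190 replicate 1 and not in replicate 2, and overlapped no CP190 peak in any of the 4 CP190 lists. The CLAMP region at roX2 overlapped CP190 and is no member. Sxl, the switch gene of female development, held a member (chrX:7094957-7095597) with 2.62 and 4.74 in mock cells, beside 2 CLAMP regions that overlapped CP190. The coding gene mof, an acetyltransferase of the complex, held none.

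After dsCP190, CLAMP was called at 321 of the 558 regions in replicate 1 (57.5%, 95% Wilson interval 53.4 to 61.6) and at 123 in replicate 2 (22.0%, 18.8 to 25.7). Over all CLAMP regions these shares were 59.9% and 22.1%. Both lists called 121 (21.7%), against 21.9%, and neither called 235 (42.1%), against 40% of all CLAMP regions. The members therefore lay near the background in each count. Replicate 1 alone called 200, and replicate 2 alone called 2, of which 1 lay in bi and 1 in Smr.

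The calls rose with mock strength, at members as at all CLAMP regions. In replicate 1 they rose from 9.21% of members in the weakest quintile through 25.0%, 56.5% and 90.5% to 100% in the strongest, and at all CLAMP regions from 14.1% through 31.3%, 62.1% and 92.1% to 99.9%. In replicate 2 they were 0%, 1.61%, 4.76%, 27.6% and 86.3%, and at all CLAMP regions 0.547%, 0.821%, 2.87%, 25.6% and 80.4%. The count of 0 of 76 in the weakest quintile has an upper Wilson limit of 4.81%.

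**Figure D4:**
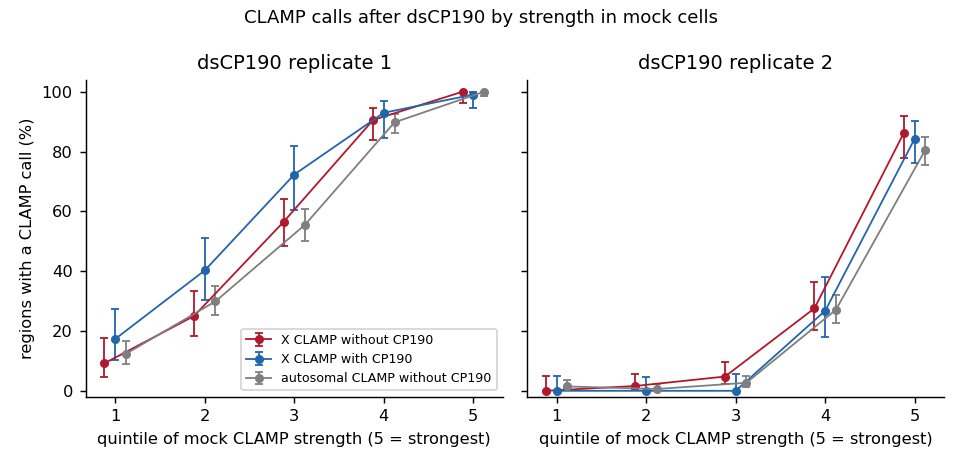
Share of regions with a CLAMP call after dsCP190 (y axis, percent) by quintile of mock strength over all CLAMP regions (x axis, 5 is strongest), in dsCP190 replicate 1 (left) and replicate 2 (right), for X regions without CP190, X regions with CP190 and autosomal regions without CP190. Bars are 95% Wilson intervals, and the X regions without CP190 go from 9.21% to 100% on the left and from 0% to 86.3% on the right.

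X regions with CP190 were called at 65.8% in replicate 1 and 26.6% in replicate 2. Within strata of mock strength, the Mantel-Haenszel odds ratio of a call at regions without CP190 against those with it was 0.529 (95% interval 0.365 to 0.768) in replicate 1. In replicate 2 it was 1.30 (0.796 to 2.13), on the other side of 1, so the libraries gave no common direction and no difference was called. Against autosomal regions of CLAMP without CP190, called at 57.7% and 21.3%, the odds ratios were 0.920 (0.709 to 1.19) and 1.23 (0.870 to 1.74). Both intervals include 1.

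None of the 235 members called in neither dsCP190 list was in the strongest quintile. The first of them in mock strength lay in Smr (chrX:12696522-12697416), with 7.41 and 10.0 in mock cells. Next came a region in Tomosyn with 7.56 and 6.65, a further one in Smr with 8.13 and 6.06, and one 1593 bp from Myc with 5.82 and 7.08. A region shared by Atg5, an autophagy gene, and CG1677 had 6.36 and 6.14, and one in dnc had 8.19 and 4.11.

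At the 121 members called in all 4 CLAMP lists, fold enrichments can be set side by side, although they are values of single peaks that were not scaled between lists. Over all 801 such CLAMP regions their median was 11.5 and 12.7 in mock cells, and 10.8 and 5.05 with dsCP190. Both dsCP190 values lay below both mock values at 56 members (46.3%), against 46.4% of the 801 regions. Both lay above at 7 members (5.79%), against 2% of the 801. No test is given for these counts, which were chosen after the values were seen.

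Those of the 7 regions that are described here lay at genes for transcription factors. Vsx1, a homeodomain factor of the visual system, had 15.1 and 17.9 in mock cells, and 33.4 and 28.6 with dsCP190 at its end (chrX:5593686-5594417). The T-box gene bi, known as optomotor-blind, held 1 such region, and another lay outside it, between genes.

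The region near bi at chrX:4411046-4412030 had 9.46 and 9.54 in mock cells, and 19.9 and 11.1 with dsCP190. The one inside bi at chrX:4426445-4427444 had 17.6 and 23.6 in mock cells, and 27.4 and 28.0 with dsCP190. The zinc-finger gene disco had 11.6 and 12.7 in mock cells, and 20.0 and 16.6 with dsCP190. None of these groups of values overlapped.

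The head gene oc, also called orthodenticle, had 13.3 and 15.3 in mock cells, and 19.3 and 17.7 with dsCP190 at its end. The head gap gene btd had 15.5 and 16.7 in mock cells, and 20.9 and 17.0 with dsCP190, where the lower dsCP190 value was close to the higher mock value. At the other end of the order, a region in stas had 15.0 and 13.2 in mock cells, and 5.97 and 3.83 with dsCP190. When each library was centred on its median over the 801 regions, 41 members (33.9%) had both dsCP190 values above both mock values, against 33.6% of the 801, and 14 (11.6%) had both below, against 18.2%.

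**Figure D5:**
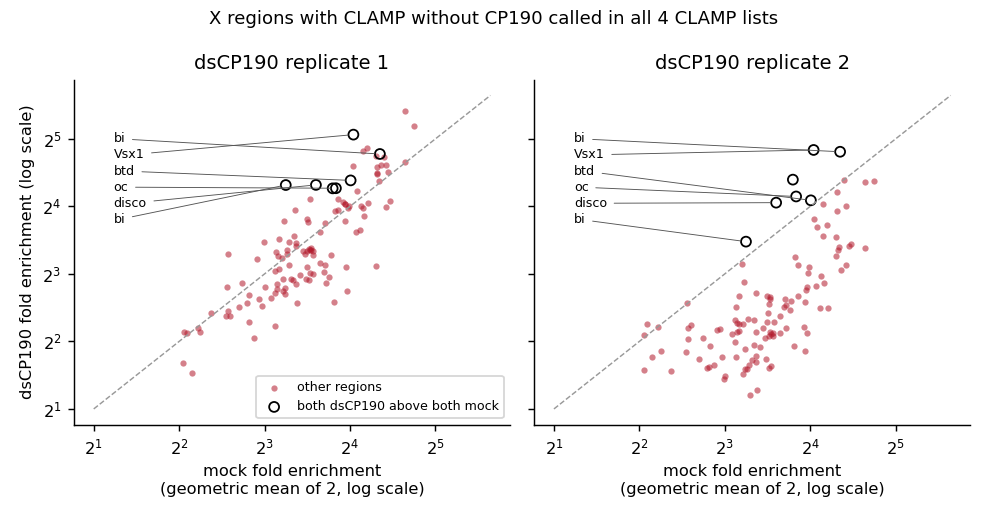
CLAMP fold enrichment after dsCP190 (y axis, log scale) against the geometric mean of both mock values (x axis, log scale) at the 121 X regions with CLAMP without CP190 called in all 4 CLAMP lists, in dsCP190 replicate 1 (left) and replicate 2 (right), with a dashed line of equal values. Open circles mark the 7 regions where both dsCP190 values exceeded both mock values, with labels at Vsx1, bi, disco, oc and btd.

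The rule excludes regions that overlap a reproducible CP190 region of mock cells, so few CP190 calls in the mock lists follow from it. No CP190 list of the 4 had a peak at 508 of the 558 (91.0%). A single mock list had one at 26 (4.66%), against 5.21% of all CLAMP regions without CP190. Of these, the first in CLAMP strength lay in mamo, with CP190 at 2.33 in mock replicate 2, and in Nost, with 1.92 in mock replicate 1. A weaker CLAMP region in pdgy, an acyl-CoA synthetase gene, had CP190 at 3.32 in mock replicate 2.

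After dsCP190, CP190 was called at 25 members in replicate 1 (4.48%, against 6.59% of all CLAMP regions without CP190) and at 8 in replicate 2 (1.43%, against 2.7%). The autosomal regions had 7.35% and 3.16%. The members' share differed from theirs by -2.87 points (95% Newcombe interval -4.87 to -0.492) in replicate 1 and by -1.72 points (-2.94 to -0.157) in replicate 2. Only 3 members had the call in both, and 30 in at least 1.

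These CP190 peaks were weak in their lists. In replicate 1 they had fold enrichments of 1.88 to 5.89, with a median of 2.70, and the best ranked 550th of 2047. In replicate 2 they had 1.88 to 3.61. Of the 25, 13 were in the strongest CLAMP quintile, and of the 8, 5 were. That quintile holds 95 of the 558 members. In replicate 1 the other quintiles held 2, 3, 5 and 2, from the weakest up. In replicate 2 they held 0, 1, 1 and 1. Autosomal CLAMP regions without CP190 also had their highest share of calls in the strongest quintile, 16.8% in replicate 1 and 6.09% in replicate 2. Members there had 13.7% and 5.26%. The other autosomal quintiles had at most 7.64% and 3.02%.

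Vsx1 had the strongest CP190 peak at a member after dsCP190, at 5.89 in dsCP190 replicate 1. It had 3.26 in replicate 2 and no CP190 peak in either mock list. In replicate 1, both Lim1 regions had CP190 at 3.47 and 3.84, and unc-4, a homeodomain gene, had 2.36. The same list held CP190 at Act5C with 2.95, mab-21 with 2.99 and disco with 2.09. In replicate 2, rdgA had 3.03 and pdgy had 2.73. Apart from pdgy, which had a CP190 peak in 1 mock list, none of these regions had CP190 in a mock list.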

How the data were processed

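ChIP-seq of CP190 and CLAMP was analysed in 8 libraries of Kc167 cells, and 4 input libraries were not used here. The submitters' processing notes list dm6 as build and, without roles, deepTools 3.0.2, MACS2 2.1.1.20160309, Picard 2.18.9, Bowtie2 2.3.4.1 and cutadapt 1.16. Which control and settings the peak calling used is not given in the sources used here. Each library has its own peak list. Per peak, the authors deposited a fold enrichment, a −log10 p-value, a −log10 q-value, a score and the summit offset. The lowest deposited −log10 q of a list lay between 1.30 and 2.01.

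Peaks on the chromosome arms were joined where they overlapped by at least 1 bp, and a region took the highest fold of its peaks in a list. A call in a further list is any overlap of at least 1 bp. Members were ordered by the mean of their within-list ranks of mock fold, and quintiles were taken over all reproducible CLAMP regions. Fragments at the summit and local background were solved from the deposited fold and −log10 p-value, and came out whole within 0.02 for 99.7% to 99.9% of the peaks of a list. Read totals of the libraries were not used here.

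Genes came from a RefSeq table of the same build, and location used the mean mock summit. Mantel-Haenszel odds ratios used 5 strata of mock strength, in each dsCP190 library separately, and only odds ratios whose 95% intervals excluded 1 in the same direction in both libraries counted as a difference. Intervals cover counting error only, since regions are not replicates. Calculations used Python 3.11.15 with scipy 1.17.1, and were tested on simulated data. Sequences and the planned motif search were not analysed here.

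Named by mock strength, with symbols other than CG or CR numbers, were the first 12 members at gene ends, 12 inside genes, 4 between genes, 6 called in both dsCP190 lists, 6 called in neither, 4 with CP190 in 1 mock list and 4 with CP190 in a dsCP190 list, the members nearest to and furthest from CP190, and up to 6 per gene list. Regions at the edge of the rule, in the runs within 10 kb, with fold values that did not overlap or with weak CP190 peaks, and those of noncoding genes, were named after their values were seen. A member that these choices select is not reported here. The members, gene lists and tests were chosen with earlier results of these data known. Runs, gene length groups and non-overlap counts were added after seeing the data. Alternatives covered the q threshold, the overlap rule, the strata, the window at gene ends, the gene set and each library left out.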

Additional observations from a re-analysis of the deposited data

How the results depend on the processing

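The count of 558 members ranged from 423 (−log10 q of at least 10) to 834 (CP190 counted only where summits lie within 100 bp), and from 543 to 686 with 1 mock library left out. No alternative gave a common direction in both dsCP190 libraries with intervals away from 1. Against X regions with CP190, the odds ratio of a CLAMP call in replicate 2 was 0.802 at a −log10 q of at least 10 and 0.781 without strata, and from 0.951 to 1.47 with 1 library left out, the lowest value being that without CLAMP mock replicate 2. With summits within 100 bp it was 3.43 in replicate 2 and 1.22 in replicate 1. In replicate 1 it was 0.525 to 0.571 with 1 library left out and 0.716 (0.421 to 1.22) with both dsCP190 lists at the length of the shorter. Against autosomal regions, replicate 1 gave 1.00 at a −log10 q of at least 3, from 0.920 to 0.941 with 1 library left out, and replicate 2 gave 1.08 to 1.29. Which step moves these odds ratios was not tested. The share of members at gene ends was 10.2% with a window of 250 bp, 23.7% with 1000 bp and 27.9% with summits within 100 bp, and 14.1% to 15.1% with 1 mock library left out. The share inside genes was 65.2%, 62.4% and 71.3% to 73.0% with 1000 bp, summits and a library left out. The difference at gene ends from autosomal regions, which did not exclude 0, excluded it at 250 bp (-3.25 points) and with lncRNA genes included (-5.46 points). The other differences in location kept their direction and their side of 0, from -48.0 to -41.4 points at gene ends against X regions with CP190 with a library left out. Centring moved the members with both dsCP190 folds above from 7 to 41 and those below from 56 to 14. The X share of CLAMP peaks differed by 0.980 to 3.46 points with 1 library left out. Same-numbered CLAMP libraries of both treatments had a correlation of deviations of 0.0134 over 801 regions. The labels give them only the same number, and this correlation cannot show whether they shared a culture or a batch. With a replicate block the difference of 2.22 points had an exact permutation p of 0.500. The centring, the equal list lengths and the alternatives for the share inside genes were chosen after seeing the data. Where a dsCP190 list has no call at a member, CLAMP was not detected there by the authors' calling, and no lower level was measured.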

Other observations

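Members also lay at noncoding genes. Within 500 bp of or inside 30 lncRNA genes on X there were 60 members, and 7 antisense RNA genes, 2 tRNA genes and 1 miRNA gene held 7, 2 and 1. Without strand in the gene table, an antisense gene and its partner cannot be told apart. The lncRNA gene CR44357 held 9 members and CR32773, which spans the bi gene, held 8. Both are long, at chrX:7166451-7405797 and chrX:4387676-4611385. No such count was made over all CLAMP regions, and the part of gene length in these counts was not tested. A region inside CR32773 and bi (chrX:4426445-4427444) came first in mock strength among members at noncoding genes, with CLAMP fold enrichments of 17.6 and 23.6 in mock cells. It was followed by the region beside CR44499 at an end of mab-21, with 19.8 and 19.7. The miRNA gene mir-9377 lies inside a region within Tis11 (chrX:12663147-12666703), which had 18.0 and 15.6 in mock cells and was called in both dsCP190 CLAMP lists.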
